A study of Mus musculus with 2 samples.

Results

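The Src family kinases are membrane-anchored tyrosine kinases, and 7 of their genes were followed here across the cells of the mouse aorta: Src, Fyn, Yes1, Lyn, Lck, Fgr and Blk. They were taken by gene symbol from the 32285 genes of the matrices, and all 7 had UMIs (counted RNA molecules) in both libraries. The study made 1 single-cell library from the aortas of each of 2 groups of mice, both deficient in ApoE on the C57BL/6 background (ApoE-/-/C57BL/6) and both fed a Western diet, which gives atherosclerosis. The group called WT carried no deletion of CD45, so that WT refers to CD45 alone. In the group called EC-iCD45KO, CD45 was deleted in endothelial cells (EC) after tamoxifen. The promoter that drove the deletion, whether WT mice received tamoxifen, the age and sex of the mice and how many aortas went into a library are not given in the sources used here. Cells were enriched with anti-CD31 beads, which bind endothelial cells and also some leukocytes.

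A Src family kinase is held inactive by a phosphate on a tyrosine near its carboxyl end, which folds back onto the kinase's own SH2 domain. The kinase Csk adds this phosphate. The receptor phosphatase CD45, the product of Ptprc, removes it on leukocytes, and related phosphatases do so elsewhere. Src, Fyn and Yes1 are known from most tissues, Lck from T and NK cells, Blk from B cells, Fgr from granulocytes and monocytes, and Lyn from B and myeloid cells. In endothelium the broadly used members act downstream of adhesion and growth factor receptors and on cell junctions. The mRNA counted here says nothing of the phosphate or of kinase activity.

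The tail tyrosine is the feature that makes these kinases substrates of CD45, so the last 48 coding bases of 5 members, stop codon included, are shown from the mouse GENCODE transcripts (GRCm38), 5′ to 3′, with the codon of that tyrosine in capitals.
Src: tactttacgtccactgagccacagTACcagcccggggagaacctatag
Fyn: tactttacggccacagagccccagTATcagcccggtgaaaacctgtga
Yes1: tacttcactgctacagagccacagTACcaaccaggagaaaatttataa
Fgr: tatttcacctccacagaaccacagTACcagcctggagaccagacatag
Lck: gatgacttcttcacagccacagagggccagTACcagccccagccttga
Between the tyrosine codon and the stop codon lay 6 codons in Src, Fyn, Yes1 and Fgr and 4 in Lck. Over the 24 bases that end with the tyrosine codon, pairs of these members shared 17 to 20 bases.

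The promoters of a broadly used member and of a lymphocyte member are shown because they differ in a property that goes with breadth of use in textbooks, the density of CG pairs. Each is the 250 bases before the RefSeq start (GRCm38.p6), in the direction of the gene, with CG pairs in capitals. The Yes1 window is chr5:32610921-32611170 on the plus strand, and the Lck window is chr4:129573642-129573891 on the minus strand.
Yes1: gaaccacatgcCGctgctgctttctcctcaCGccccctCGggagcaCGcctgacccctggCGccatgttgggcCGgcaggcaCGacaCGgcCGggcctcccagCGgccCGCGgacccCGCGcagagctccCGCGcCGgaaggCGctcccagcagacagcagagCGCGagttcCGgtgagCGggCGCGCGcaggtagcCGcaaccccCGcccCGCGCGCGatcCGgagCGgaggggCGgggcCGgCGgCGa
Lck: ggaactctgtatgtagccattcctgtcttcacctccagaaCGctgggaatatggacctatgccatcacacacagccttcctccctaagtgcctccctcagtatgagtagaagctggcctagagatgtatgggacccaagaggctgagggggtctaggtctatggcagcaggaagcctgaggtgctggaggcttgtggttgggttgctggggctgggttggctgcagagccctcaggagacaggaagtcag
The Yes1 window held 37 CG pairs and this Lck window 1, against a median of 6 over 32851 mouse promoters of the same length. Src held 40, Fyn 21 and Fgr 9, and a second Lck start had 3. In that order, 98.7%, 83.7%, 59.7% and 29.0% of all promoters held fewer, with 97.8% for Yes1 and 7.87% for the Lck window shown. The GC box letters GGGCGG, searched on both strands, were in the Src, Fyn and Yes1 windows and in that of the second Lck start, and in 32.7% of all promoters. The letters GAGGAAGT, a motif of the PU.1 type, and TATAAA were in none of the members' windows, and in 2.44% and 12.4% of all promoters. Lyn and Blk had no entry.

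In the annotation of GRCm38, Src lies at chr2:157418444-157471862, Fyn at chr10:39368855-39565381, Yes1 at chr5:32611171-32687057, Lyn at chr4:3678115-3813122 and Fgr at chr4:132974095-133001910, all on the plus strand. Lck (chr4:129548344-129573641) and Blk (chr14:63372836-63417037) lie on the minus strand. On the opposite strand, Fyn overlaps the counted genes Gm16364 and Gm16365, and Yes1 overlaps Gm15614. No counted gene overlapped a member on its own strand. Whether the counting used strand is not given in the sources used here, and without it such overlapping reads cannot be told apart.

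The WT library held 39849 cell barcodes with 92058043 UMIs and the EC-iCD45KO library 30278 with 88967918, and 340 barcodes were in both. After filters on genes, mitochondrial UMIs and doublet scores, 35368 and 25937 cells were clustered without the 7 members, Ptprc or the pathway genes. The median cell had 1619 and 1510 UMIs. Of the 34 clusters, 20 were named by fixed markers and fell into 14 classes, each called "-like", and 11345 WT and 6847 EC-iCD45KO cells stayed unnamed. The EC-like class had 3804 and 4038 cells, and all 12 EC markers were detected in both libraries. The makeup differed between the libraries, with 5800 B-like and 3197 T-like cells in WT against 336 and 377 in EC-iCD45KO, and 2247 macrophage-like cells against 5093. Levels are UMIs of a gene scaled to 1000000 UMIs of the class (CPM), with 95% Poisson intervals that cover counting error only. With 1 library per group no test between the groups was possible, and each difference compares 2 libraries.

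Ptprc, the deleted gene, was read in both libraries first. In EC-like cells it stood at 298 CPM in WT (95% interval 287 to 311) and 112 CPM in EC-iCD45KO (105 to 118), a log2 ratio of -1.42 (-1.52 to -1.32). It was also lower in fibroblast-like cells, at 303 and 129 CPM, and in SMC-like (smooth muscle) cells, at 140 and 84.3 CPM, where the deletion was not directed. The lowest levels of an EC-like cluster were in the one led by Gpihbp1 and Gm12002, at 112 CPM in WT (96.2 to 130) and 17.8 CPM in EC-iCD45KO (13 to 23.8). Leukocyte classes went in both directions, from 451 to 255 CPM in macrophage-like cells, 751 to 1257 CPM in B-like cells and 958 to 2272 CPM in neutrophil-like cells. Which exons were deleted, and which end of the transcript was counted, are not given in the sources used here, so these counts may lie outside the deleted part.

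**Figure D1:**
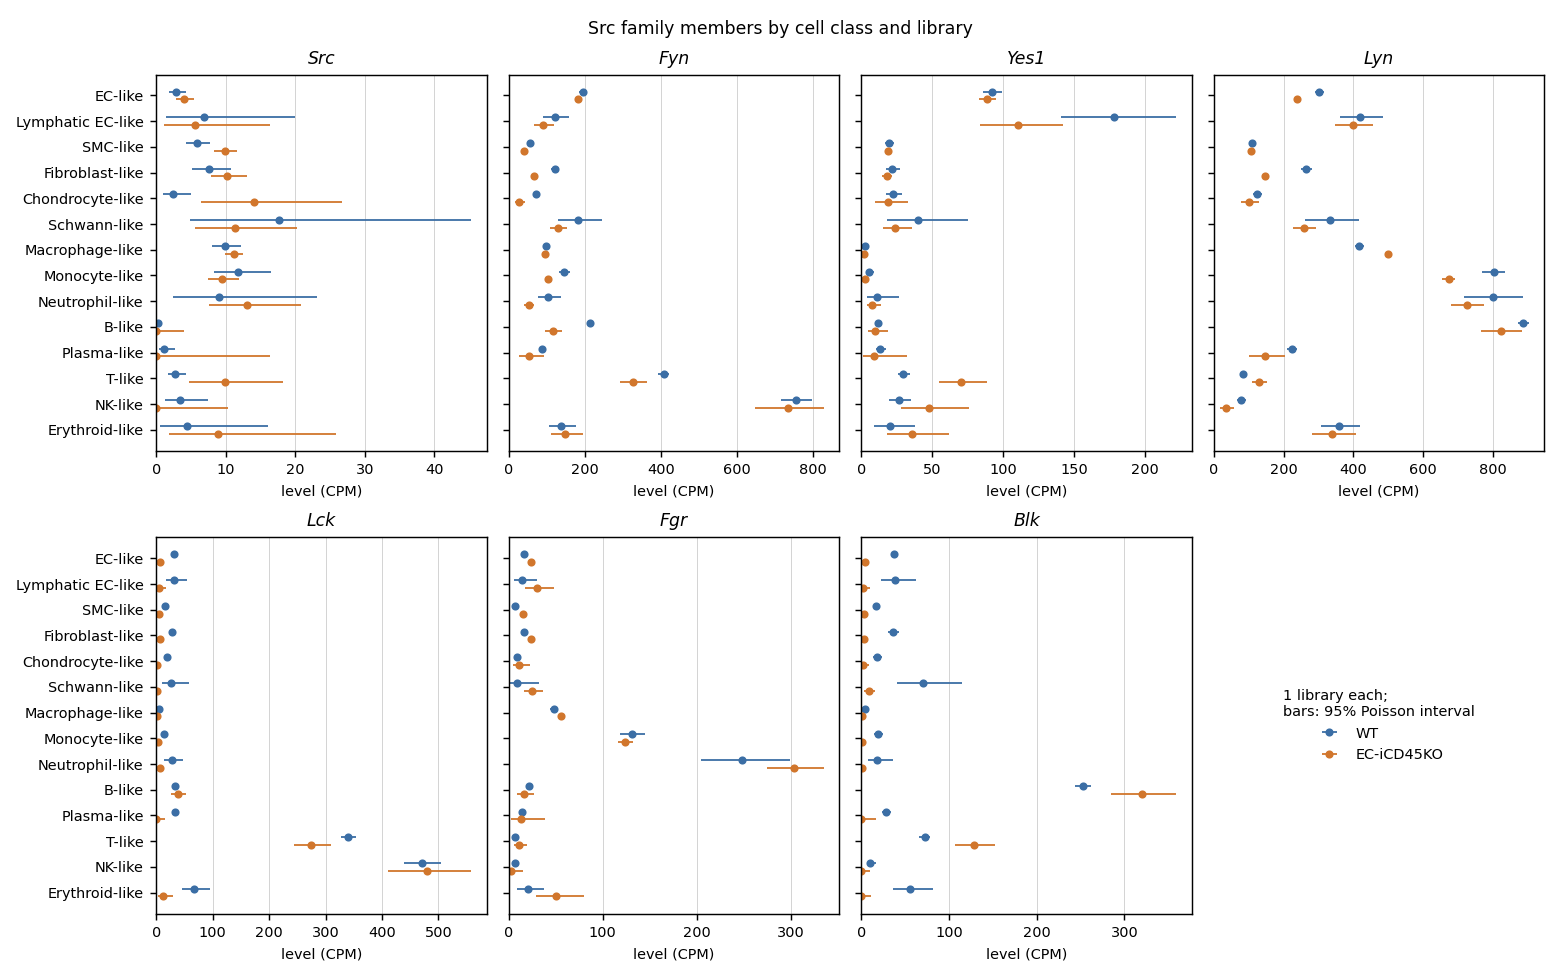
Level of each member in CPM (linear axis, own scale per panel) in 14 cell classes; points are the 2 libraries, blue WT and orange EC-iCD45KO, and bars are 95% Poisson intervals. Yes1 is highest in the 2 endothelial classes, Lck and Fyn in NK-like cells, Lyn and Blk in B-like cells and Fgr in neutrophil-like cells.

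Yes1, a kinase of adhesion and junction signalling, had its highest levels in the endothelial classes. It stood at 178 CPM in WT (141 to 222) and 110 CPM in EC-iCD45KO (84.0 to 142) in lymphatic EC-like cells. In EC-like cells it stood at 92.4 CPM (85.9 to 99.2) and 89.0 CPM (83.3 to 95). Every other class was lower in both libraries. By the mean of the 2 libraries T-like cells came next, with 29.7 and 70.1 CPM, although in WT Schwann-like cells were above them with 39.8 CPM. The ranges of the 2 libraries did not overlap between the 3 highest classes. SMC-like cells had 19.5 and 19.2 CPM and fibroblast-like cells 21.9 and 17.8 CPM. Macrophage-like cells, at 2.93 and 2.16 CPM, were at the bottom of the order, so that EC-like cells had 31.6-fold and 41.2-fold more. EC-like cells held 36.2% of the 2076 Yes1 UMIs of all clustered WT cells and 52.9% of the 1715 in EC-iCD45KO, shares that also move with the number of cells captured.

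Yes1 varied within the endothelium. The EC-like cluster led by Gpihbp1 (a lipase carrier of capillary endothelium) and Gm12002 had 170 CPM in WT (151 to 192) and 142 CPM in EC-iCD45KO (127 to 157). The cluster led by Ackr1 and Csf3 had 83.0 CPM (74.7 to 92.0) and 72.3 CPM (65.6 to 79.4), and the one led by Gkn3 and Klk10 had 53.3 CPM (44.0 to 64.0) and 69.1 CPM (57.1 to 82.9). The Gpihbp1 cluster was above the other 2 in both libraries beyond the counting intervals. After each cell was thinned to 1000 UMIs, 8.28% of WT and 6.94% of EC-iCD45KO EC-like cells had a Yes1 UMI (14.8% and 15.1% unthinned). B-like cells, taken to lack Yes1, had 0.945% and 0.968%, and neutrophil-like cells 0.581% and 0.914%. Median depths were 1364.5 and 1350.5 UMIs in EC-like, 2007.5 and 2552.5 in B-like and 1257 and 1598.5 in neutrophil-like cells. Thinning left out 1195 WT and 1356 EC-iCD45KO EC-like cells with fewer UMIs.

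Fyn, which acts in T cell receptor signalling and in adhesion, was highest in NK-like cells, with 755 CPM in WT (715 to 797) and 735 CPM in EC-iCD45KO (649 to 829). The NK-like class, named for genes such as Gzma and Xcl1 that lead it, also carried Cd3d, Cd3e, Cd3g and Trac, genes of the T cell receptor complex, at a summed 2914 and 3014 CPM. T-like cells had 2802 and 2605 CPM of these genes, so these genes did not separate the 2 classes. T-like cells followed with 407 and 326 CPM, and EC-like cells came after them with 195 CPM (186 to 205) and 181 CPM (173 to 190). The library ranges did not overlap between these 3 classes. From there on neighbouring ranges overlapped, starting with B-like cells, which had 214 CPM in WT and 115 CPM in EC-iCD45KO. Fibroblast-like cells had 122 and 67.5 CPM and SMC-like cells 56.3 and 41.0 CPM. EC-like cells were thus 3.47-fold and 4.42-fold above SMC-like cells and 1.60-fold and 2.69-fold above fibroblast-like cells.

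Fyn was nearly even over the EC-like clusters in WT, but not in EC-iCD45KO. In WT it ranged from 188 CPM in the Gkn3 and Klk10 cluster to 198 CPM in the Gpihbp1 and Gm12002 cluster, and the 3 intervals overlapped. In EC-iCD45KO the Ackr1 and Csf3 cluster had 169 CPM (159 to 180) and the Gpihbp1 and Gm12002 cluster 210 CPM (193 to 229), intervals that did not overlap. After thinning, 17.4% of WT and 15.8% of EC-iCD45KO EC-like cells had a Fyn UMI (28.4% and 27.6% unthinned), against 12.1% and 7.35% of plasma-like cells, the class taken to lack it. Plasma-like cells had median depths of 1331 and 1418 UMIs, and only 76 of them were in EC-iCD45KO.

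Src itself was sparse, with 385 UMIs in WT, the fewest of the 7 members there, and 761 in EC-iCD45KO, where Blk with 612 had fewer, over all clustered cells. Its best-measured classes were macrophage-like cells, with 9.93 CPM in WT (8.04 to 12.1) and 11.1 CPM in EC-iCD45KO (9.86 to 12.5), and SMC-like cells, with 5.83 CPM (4.28 to 7.75) and 9.85 CPM (8.24 to 11.7). EC-like cells had 2.83 CPM (1.79 to 4.24) and 4.02 CPM (2.89 to 5.46). Src was thus lower in EC-like cells than in SMC-like cells by a log2 ratio of -1.04 in WT (-1.83 to -0.30) and of -1.29 (-1.83 to -0.78) in the other library. Against fibroblast-like cells the ratios were -1.42 and -1.35. Schwann-like cells had the highest mean, from 4 and 11 UMIs, at 17.7 and 11.3 CPM, but the ranges of the 10 highest classes overlapped from neighbour to neighbour, and TMM scaling put Schwann-like below neutrophil-like cells (-0.31). B-like cells were lowest, with 0.23 CPM in WT and 0 UMIs in EC-iCD45KO, which allows up to 3.29 CPM. After thinning, 0.307% of WT EC-like cells (0.132 to 0.603) and 0.447% of EC-iCD45KO EC-like cells (0.231 to 0.780) had a Src UMI (0.578% and 0.966% unthinned). Of the thinned B-like cells, 0 of 5394 had one in WT, with an exact upper limit of 0.0684%, and 0 of 310 in EC-iCD45KO, with one of 1.18%. The interval for EC-like cells lay above that for B-like cells in WT at this depth, and the intervals overlapped in EC-iCD45KO. With thinning to 2000 UMIs they overlapped in WT too, at 0.332% of EC-like cells (0.0906 to 0.848) and 0.0683% of B-like cells (0.0083 to 0.247), so no firm difference from background was shown. B-like cells were taken for this after the data were seen, as the lowest class. Neutrophil-like cells, the class first chosen as lacking Src, held it at 9.03 and 13 CPM and in 1.74% and 0.914% of thinned cells, and could not serve as a background.

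Lyn, which in B and myeloid cells serves both activating and inhibitory receptors, was highest in B-like cells, at 887 CPM in WT (871 to 903) and 823 CPM in EC-iCD45KO (765 to 884). Neutrophil-like cells had 799 and 727 CPM, and monocyte-like cells 802 and 674 CPM. B-like and neutrophil-like ranges did not overlap, but their order turned over with TMM scaling, from a log2 ratio of mean levels of 0.16 to -0.17. Macrophage-like cells had 416 and 499 CPM, a range that overlapped that of lymphatic EC-like cells at 420 and 398 CPM. EC-like cells had 303 CPM (291 to 315) and 239 CPM (230 to 249), and fibroblast-like cells 264 and 148 CPM. NK-like cells were lowest, at 78.3 and 33.5 CPM.

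Lyn split the macrophage-like class. The cluster led by Retnla and Negr1 had 587 CPM in WT (561 to 615) and 724 CPM in EC-iCD45KO (707 to 741), and the cluster led by Gpnmb and Atp6v0d2, genes of lipid-laden macrophages, had 333 CPM (319 to 347) and 351 CPM (342 to 361). The log2 ratio of EC-iCD45KO over WT was 0.30 (0.23 to 0.38) in the first and 0.08 (0.0043 to 0.15) in the second. The first gave 833 of the 2247 WT and 2392 of the 5093 EC-iCD45KO macrophage-like cells, so levels of the whole class compare different mixes. Among EC-like clusters the Ackr1 and Csf3 cluster was highest, with 361 and 295 CPM, and the Gkn3 and Klk10 cluster lowest, with 219 and 111 CPM.

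Whether Lyn in EC-like cells lay above the level that free RNA gives was read from the background classes. After thinning, 24.9% of WT EC-like cells had a Lyn UMI, against 26.2% of fibroblast-like and 15.9% of SMC-like cells. In EC-iCD45KO the shares were 21.6%, 16.7% and 15.9% (unthinned 39.0% and 34.6% in EC-like cells). The fibroblast-like cells had median depths of 1267.5 and 1259 UMIs and the SMC-like cells 1832 and 1509. The WT share in EC-like cells was thus not above that of fibroblast-like cells. In cells that had no UMI of 8 leukocyte markers (Cd3d, Cd3e, Cd79a, Cd79b, Ms4a1, C1qa, C1qb and Lyz2) the classes separated. There Lyn stood at 138 CPM in 474 WT EC-like cells (117 to 162), at 62.2 CPM in 203 fibroblast-like cells (42.8 to 87.3) and at 25.9 CPM in 247 SMC-like cells (18.0 to 36.0). In EC-iCD45KO the values were 152 CPM in 408 EC-like cells (128 to 179), 48.5 CPM in 172 fibroblast-like cells (29.2 to 75.8) and 37.9 CPM in 264 SMC-like cells (25.2 to 54.8).

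The same cells gave the order of the other members in endothelium with fewer leukocyte UMIs. Fyn stood at 148 CPM in WT (126 to 173) and 164 CPM in EC-iCD45KO (139 to 191), against 25.9 and 27.1 CPM in SMC-like and 45.2 and 51.1 CPM in fibroblast-like cells. Yes1 stood at 128 CPM (108 to 151) and 120 CPM (98.6 to 144), against 15.5 and 24.4 CPM in SMC-like and 15.1 and 10.2 CPM in fibroblast-like cells. Lck had 12 and 8 UMIs (10.8 and 8.39 CPM), Blk 10 and 2 (9.03 and 2.10 CPM), and Fgr 5 and 9 (4.51 and 9.44 CPM). Src had 0 UMIs in both libraries, which allows up to 2.71 CPM in WT and 3.15 CPM in EC-iCD45KO. Ptprc stood at 50.5 CPM (38.2 to 65.6) and 40.9 CPM (29.1 to 55.9), with intervals that overlapped. SMC-like cells had 32.5 and 25.8 CPM of Ptprc and fibroblast-like cells 66.0 and 89.4 CPM. Ptprc in these EC-like cells was thus not above the fibroblast-like level in either library. Of the 7 members, Yes1, Fyn and Lyn were above both SMC-like and fibroblast-like cells beyond the counting intervals in both libraries.

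Fgr, a kinase of integrin and Fc receptor signalling in phagocytes, was highest in neutrophil-like cells, at 248 CPM in WT (204 to 299) and 304 CPM in EC-iCD45KO (275 to 335). Monocyte-like cells had 131 and 124 CPM and macrophage-like cells 47.9 and 56.1 CPM, with no overlap between neutrophil-like and monocyte-like cells or between monocyte-like and macrophage-like cells. In the macrophage-like class Fgr had the opposite order to Lyn: the Gpnmb and Atp6v0d2 cluster had 57.6 and 63.5 CPM, and the Retnla and Negr1 cluster 28.1 and 44.7 CPM. An unnamed cluster led by Cd209a and Timd4, in which dendritic and plasmacytoid dendritic markers were about equally high, had 219 and 189 CPM, together with 406 and 377 CPM of Fyn. EC-like cells had 16.7 CPM (14 to 19.8) and 24 CPM (21.1 to 27.2), and fibroblast-like cells 16.3 and 23.8 CPM.

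Lck, which starts T cell receptor signalling by phosphorylating the CD3 chains, was highest in NK-like cells, at 471 CPM in WT (439 to 504) and 481 CPM in EC-iCD45KO (411 to 558). T-like cells had 340 and 275 CPM. The ranges of these 2 classes did not overlap with each other or with the next class. The T-like values mix unlike cells, since the cluster led by Dapl1 and Lef1 gave 1563 of the 3197 WT cells and the cluster led by Tcrg-C1 and Trdc 216 of the 377 EC-iCD45KO cells. By cluster, Lck stood at 363 and 703 CPM in the Dapl1 and Lef1 cluster, at 474 and 420 CPM in the Tnfrsf4 and Izumo1r cluster, and at 92.7 and 69.0 CPM in the Tcrg-C1 and Trdc cluster. The last, led by genes of the gamma and delta receptor chains, was lowest in both libraries. The order of the classes did not hold for every cluster: in EC-iCD45KO the Dapl1 and Lef1 cluster (586 to 836, from 67 cells) was above NK-like cells, and in WT the Tnfrsf4 and Izumo1r cluster (445 to 504) was level with them within counting error. NK-like cells carried the T cell receptor genes as given above. B-like cells had 33.2 and 38.4 CPM of Lck.

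Blk, a kinase of B cell receptor signalling, was highest in B-like cells, at 253 CPM in WT (244 to 261) and 320 CPM in EC-iCD45KO (284 to 359). T-like cells came second, with 72.2 and 128 CPM, and nearly all of it was in 1 cluster. The Tcrg-C1 and Trdc cluster had 312 CPM in WT (284 to 342) and 228 CPM in EC-iCD45KO (191 to 271), from 457 of the 507 and 129 of the 130 Blk UMIs of T-like cells. The Dapl1 and Lef1 cluster had 6.12 CPM and 0 UMIs, and the Tnfrsf4 and Izumo1r cluster 13.6 and 3.75 CPM. The Tcrg-C1 and Trdc cluster was thus the highest T-like cluster for Blk and the lowest for Lck in both libraries, while Fyn was present in all 3, from 237 and 228 CPM in the Tcrg-C1 and Trdc cluster to 656 and 491 CPM in the Tnfrsf4 and Izumo1r cluster.

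**Figure D2:**
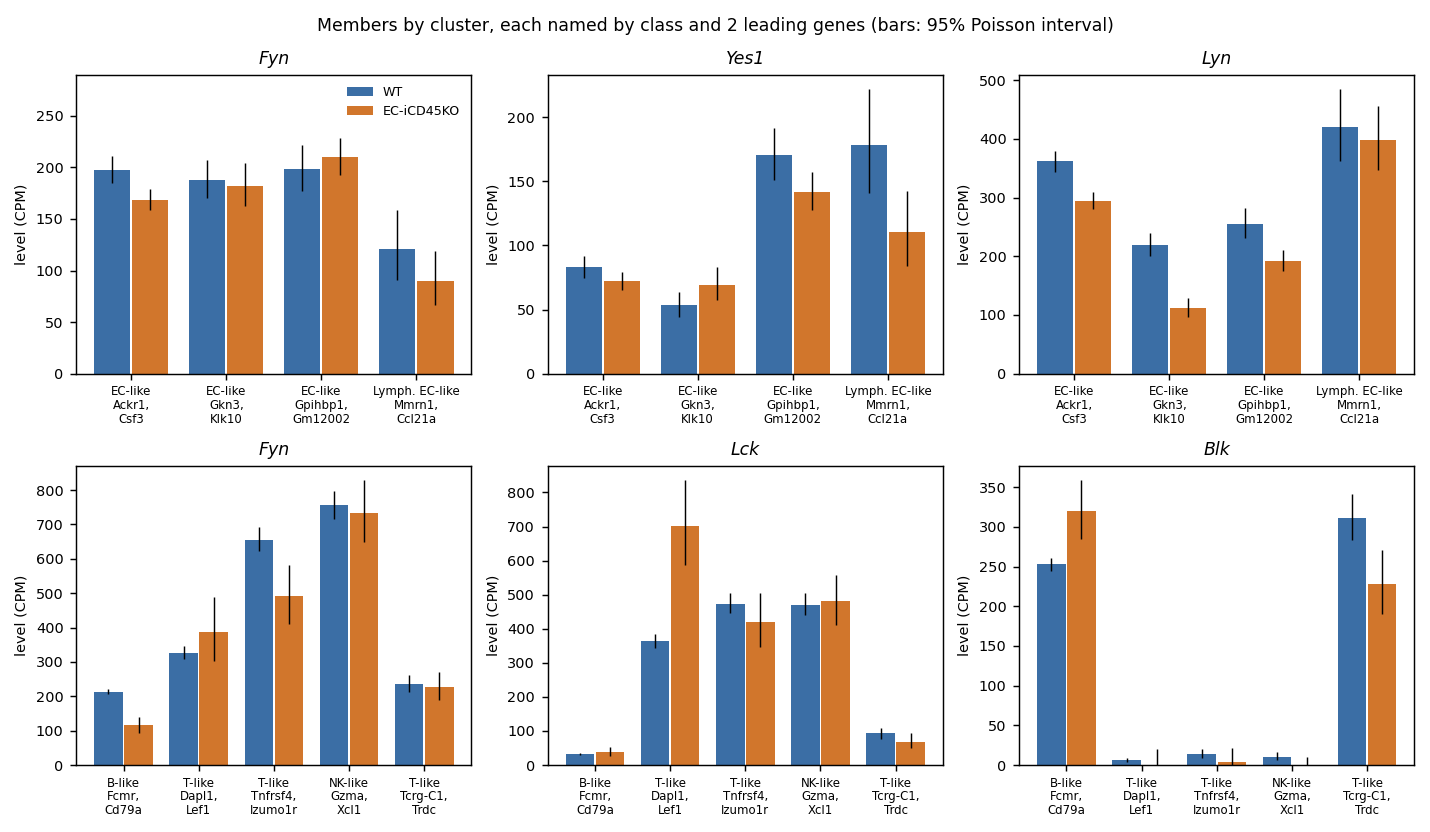
Level of members in CPM by cluster, the upper row for endothelial and the lower for lymphocyte clusters; bars are the 2 libraries (blue WT, orange EC-iCD45KO) with 95% Poisson intervals, and each cluster is labelled by its class and 2 leading genes. Yes1 peaks in the Gpihbp1 and lymphatic clusters, Fyn is nearly even over the EC-like clusters in WT, and among the T-like clusters that led by Tcrg-C1 and Trdc is highest for Blk and lowest for Lck.

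The comparison the design asks for is that of EC-like cells between the libraries, where CD45 was to be deleted. It compares different mixes of EC-like clusters. The cluster led by Gkn3 and Klk10 gave 897 of the 3804 WT and 497 of the 4038 EC-iCD45KO cells. Yes1 differed by less than counting error, with a log2 ratio of EC-iCD45KO over WT of -0.05 (-0.20 to 0.09), and Fyn was slightly lower at -0.11 (-0.20 to -0.01). Lyn was lower at -0.34 (-0.42 to -0.26) and Fgr higher at 0.52 (0.22 to 0.84), from 136 and 245 UMIs. Src had a ratio of 0.51 (-0.26 to 1.31) from 23 and 41 UMIs, within counting error. Lck went from 30.8 CPM (251 UMIs) to 7.06 CPM (72 UMIs), a ratio of -2.13 (-2.53 to -1.74). Blk went from 37.6 CPM (306 UMIs) to 3.83 CPM (39 UMIs), a ratio of -3.30 (-3.82 to -2.81). In the other endothelial class, lymphatic EC-like cells, Yes1 went from 178 CPM in WT to 110 CPM in EC-iCD45KO.

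Past 2-fold in EC-like cells, 2 of the 6 members that averaged 5 CPM or more were lower (Lck and Blk) and 0 were higher, with Src under that minimum. Blk, at 3.83 CPM in EC-iCD45KO, reached the minimum through WT, where it was high. Of all 10977 genes at that level in EC-like cells, 3.57% were lower and 1.56% higher past 2-fold. At 1.5-fold Lck and Blk were again the members lower and 0 were higher, beside 7.53% and 4.96% of all genes. The median log2 ratio was -0.22 over the 6 members and -0.00 over all those genes. In EC-like cells without a UMI of the leukocyte markers, Fyn and Lyn had ratios of 0.14 each, with intervals of the levels (given above) that overlapped between the libraries, so that neither direction was shown there, and Lck stood at -0.37 and Blk at -2.11, from the few UMIs given above.

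**Figure D3:**
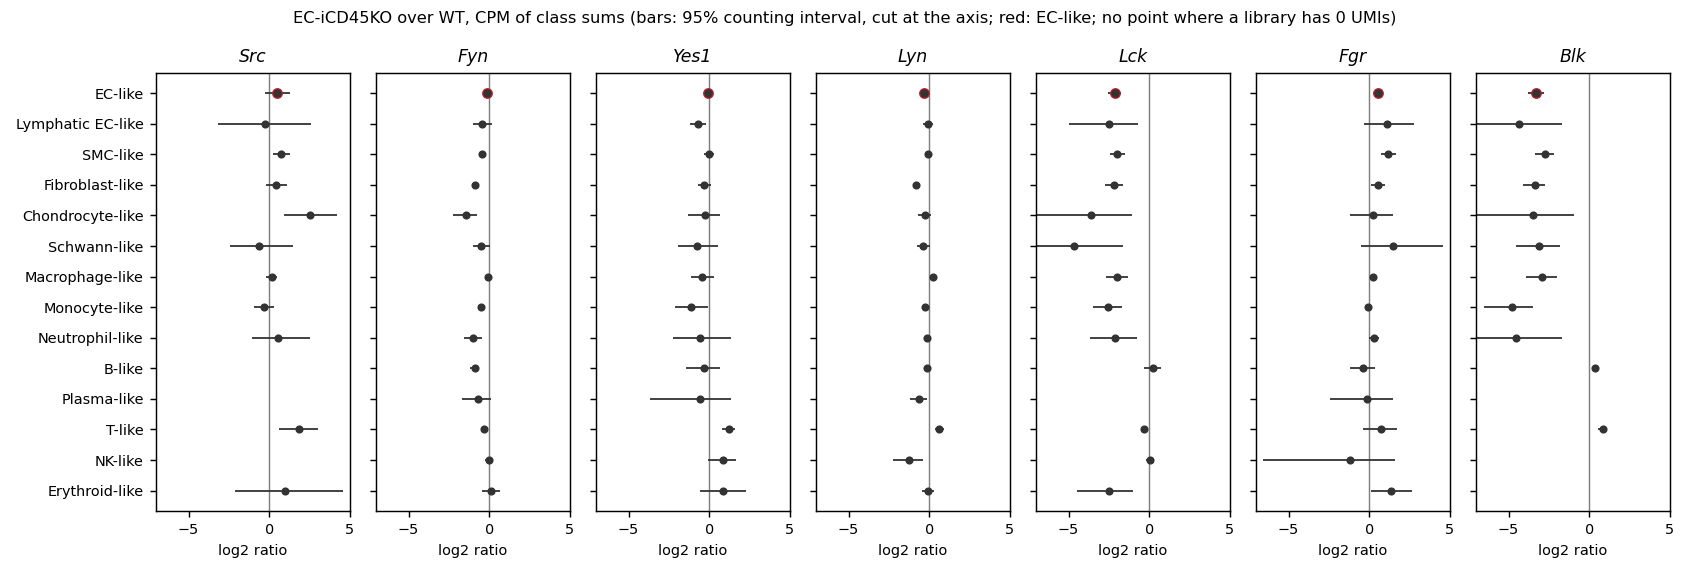
Log2 ratio of the level in EC-iCD45KO over WT for each member (panels, same linear axis) in 14 classes, with 95% counting intervals cut at the axis limits; EC-like cells are the ringed red point, and a class with 0 UMIs in a library has no point. Lck and Blk lie far below 0 in EC-like, SMC-like, fibroblast-like and myeloid classes together, and Blk above 0 in B-like and T-like cells.

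Each of these differences was set beside the same difference in classes where the deletion was not directed. Lck had a log2 ratio of -2.16 (-2.73 to -1.62) in fibroblast-like, -1.97 (-2.46 to -1.51) in SMC-like cells. Macrophage-like cells gave -1.97 (-2.66 to -1.30). Blk had -3.39 (-4.12 to -2.73), -2.74 (-3.33 to -2.19) and -2.90 (-3.89 to -1.99) there. The intervals for Lck and Blk in EC-like cells overlapped those in each of these 3 classes. In NK-like cells Lck stood at 0.03 (-0.22 to 0.27), and in B-like cells Blk stood at 0.34 (0.16 to 0.51). The T-like value of Lck, -0.31 (-0.49 to -0.13), compares the different mixes of clusters given above. Within clusters Lck was higher in the Dapl1 and Lef1 cluster, at 0.95 (0.68 to 1.22), and differed by less than counting error in the Tnfrsf4 and Izumo1r cluster, at -0.17 (-0.47 to 0.11), and in the Tcrg-C1 and Trdc cluster, at -0.43 (-0.98 to 0.10). Fgr was higher by 0.54 (0.11 to 0.98) in fibroblast-like and 1.19 (0.76 to 1.65) in SMC-like cells. Lyn was lower by more in fibroblast-like cells, at -0.84 (-0.97 to -0.71), than in EC-like cells, and near 0 in SMC-like cells, at -0.05 (-0.17 to 0.08). Fyn was lower at -0.86 (-1.05 to -0.66) in fibroblast-like and -0.46 (-0.64 to -0.27) in SMC-like cells. Src was higher in SMC-like cells, at 0.76 (0.27 to 1.27), and within counting error in fibroblast-like cells, at 0.44 (-0.21 to 1.11). Yes1 was within counting error in both, at -0.02 (-0.31 to 0.27) and -0.30 (-0.72 to 0.12). Over all 14 classes Yes1 was lower beyond counting error in 2 and higher in 1, T-like cells, at 1.24 (0.83 to 1.63). That T-like value too compares different mixes of clusters.

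Markers of other cell types in EC-like cells moved with these values. The summed level of the 7 T cell markers in EC-like cells was 389 CPM in WT and 76.5 CPM in EC-iCD45KO, and that of the 8 B cell markers 1811 and 633 CPM. The 10 macrophage markers summed to 2774 and 3695 CPM, and the 8 neutrophil markers to 103 and 211 CPM. The 6 monocyte markers went the other way, from 243 to 190 CPM. None of the T, B, macrophage or monocyte markers was at 0 in EC-like cells of either library, and 1 neutrophil marker was at 0 in EC-iCD45KO. In those classes themselves, T markers summed to 5375 and 4730 CPM and B markers to 8765 and 8598 CPM.

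Lck and Blk were also set against markers of the lymphocytes they are known from, as UMIs of the kinase per 100 UMIs of the markers. These ratios are a description, and the part of lymphocyte RNA in the levels of EC-like cells was not tested. Per 100 UMIs of Cd3d, Cd3e, Cd3g and Trac, EC-like cells had 15.6 Lck UMIs in WT (13.6 to 17.8) and 24.4 in EC-iCD45KO (18.6 to 31.7). T-like cells had 12.1 and 10.5, so that EC-like cells were above them, by more in EC-iCD45KO. NK-like cells, the highest class for Lck, had 16.2 (15.0 to 17.4) and 15.9 (13.5 to 18.7). Their intervals overlapped those of EC-like cells in both libraries. The classes other than T-like and B-like with at least 10 Lck UMIs, EC-like included, had 13.3 to 18.8 in WT (11 classes) and 14.3 to 24.4 in EC-iCD45KO (6 classes). Per 100 UMIs of Cd79a, Cd79b and Ms4a1, EC-like cells had 5.49 Blk UMIs in WT (4.88 to 6.16) and 7.28 in EC-iCD45KO (5.12 to 10.1), against 5.07 and 6.37 in B-like cells. Here the classes other than T-like and B-like had 3.09 to 6.25 in WT (11 classes) and 1.42 to 8.23 in EC-iCD45KO (4 classes). Far outside these ranges stood B-like cells for Lck, with 440 Lck UMIs beside 326 of the T cell markers in WT and 35 beside 4 in EC-iCD45KO. T-like cells stood apart for Blk, with 507 Blk UMIs beside 1519 of the B cell markers in WT and 130 beside 18 in EC-iCD45KO. The 3 markers used for Blk were chosen after the data were seen. In EC-like cells they summed to 685 and 52.6 CPM, against 1811 and 633 CPM for all 8 B cell markers. The Blk ratios thus depend on the markers taken, and those to all 8 were not computed.

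The same ratios for Fgr and Lyn in EC-like cells were above those of each home class they were set against. Per 100 UMIs of the neutrophil genes S100a8, S100a9 and Csf3r, EC-like cells had 23.4 Fgr UMIs in WT (19.2 to 28.2) and 14.3 in EC-iCD45KO (12.5 to 16.4), against 0.867 and 1.14 in neutrophil-like cells. Fibroblast-like cells had 24.8 and 15.8 and SMC-like cells 15.7 and 10.3, so a ratio far above that of neutrophil-like cells was not particular to EC-like cells. Per 100 UMIs of the monocyte genes Ly6c2, Plac8 and Chil3, EC-like cells had 10.9 and 27.5 Fgr UMIs, against 5.88 and 11.9 in monocyte-like cells, 8.21 and 31.1 in SMC-like and 5.85 and 8.52 in fibroblast-like cells. Lyn had 13.98 UMIs in WT and 8.28 in EC-iCD45KO per 100 UMIs of C1qa, C1qb and C1qc in EC-like cells, against 2.22 and 2.88 in macrophage-like cells. Per 100 UMIs of Cd79a and Cd79b, Lyn had 54.6 and 556 in EC-like cells, against 21.9 and 20.0 in B-like cells, 41.4 and 409 in SMC-like and 42.5 and 329 in fibroblast-like cells. SMC-like cells had 14.1 and 5.90 Lyn UMIs per 100 of the macrophage genes and fibroblast-like cells 11.98 and 5.32.

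**Figure D4:**
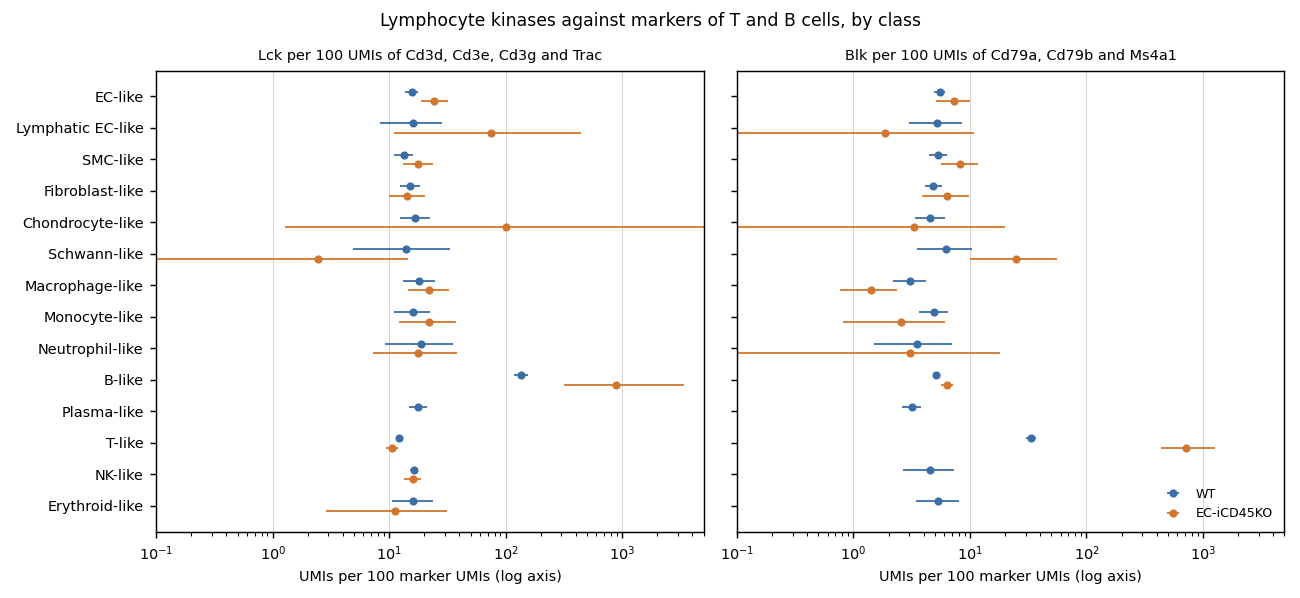
UMIs of Lck per 100 UMIs of 4 T cell markers (left) and of Blk per 100 UMIs of 3 B cell markers (right), on log axes, in each class and library (blue WT, orange EC-iCD45KO), with 95% counting intervals; classes with 0 UMIs have no point and wide bars come from few UMIs. In WT most classes lie between 13.3 and 18.8 for Lck and between 3.09 and 6.25 for Blk, while Lck in B-like cells (135 and 875) and Blk in T-like cells (33.4 and 722) stand far to the right.

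The genes around the kinases were read in EC-like cells as 5 lists. Of all genes measured in EC-like cells, 3.57% were lower and 1.56% higher past 2-fold, and each count below stands beside these shares. The first list holds Csk, a related kinase, membrane anchors of Csk and the phosphatases that act on Src family kinases, at the tail or elsewhere. Of its 12 measured genes, 3 were lower past 2-fold and 0 higher, with a median log2 ratio of -0.29. The 3 were Ptprc, Ptpn22 (-2.18, from 63.8 to 14 CPM), a lymphocyte phosphatase that acts on the activation loop of Lck and Fyn and not on the tail, and Pag1 (-1.44, a membrane anchor of Csk). Csk itself, named after its values were seen, went from 71.6 to 41.8 CPM (-0.78), and had the same ratio of -0.78 in fibroblast-like cells. The T and B cell markers given above were lower with these genes, and their part was not tested. By the mean of the 2 libraries the highest of the list in EC-like cells was Ptprj, a receptor phosphatase of endothelium that also acts on Src family kinases. In WT it was level with Ptprc, and it stood at 297 and 260 CPM (-0.20, -0.28 to -0.12). Fibroblast-like cells had 4 of 12 lower and 0 higher past 2-fold, where 4.55% and 1.72% of all genes were.

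Of the 14 genes that relay antigen receptor signals, 7 were lower past 2-fold and 0 higher, with a median of -1.13. Among them were Sh2d1a (-3.48), Skap1 (-2.70), Lat (-2.47), Zap70 (-2.37), Btk (-1.49) and Blnk (-1.32). Sh2d1a encodes an adaptor of T and NK cells that binds Fyn, and Skap1, Lat and Zap70 act downstream of Lck in T cells. Skap1 stood at 92.6 and 14.2 CPM, Lat at 28.3 and 5.10 CPM, Zap70 at 8.60 and 1.67 CPM and Sh2d1a at 9.83 and 0.88 CPM. Zap70 and Sh2d1a reached the mean of 5 CPM only through WT, where they were high, so their calls carry no weight. In fibroblast-like cells 6 of 12 genes of this list were lower past 2-fold, and in SMC-like cells 3 of 12, where 2.75% of all genes were. Skap1 had -2.71 and -2.23 in those classes and -0.26 in T-like cells. Fyb, an adaptor of T and myeloid cells and the highest of the list, stood at 141 and 150 CPM (0.09, -0.02 to 0.20). Plcg1 (0.11), Lcp2 (-0.07) and Vav1 (-0.18), named after their values were seen, were within counting error. The T and B cell markers given above were lower together with the 7 genes past 2-fold, and their part in the result was not tested.

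Of the 8 ITAM adaptors and inhibitory receptors, which Src family kinases phosphorylate in myeloid cells, 1 was higher past 2-fold (Siglece, 1.36, from 23 and 74 UMIs) and 0 lower, with a median of 0.60. Siglece, at 2.83 CPM in WT and 7.26 CPM in EC-iCD45KO, reached the mean of 5 CPM only through the library where it was high. Its call therefore carries no weight. Fcer1g, the shared chain of Fc receptors and the highest of the list, stood at 590 and 861 CPM (0.55, 0.49 to 0.60). In SMC-like cells 5 of 6 were higher past 2-fold, with a median of 1.13, where 2.42% of all genes were. In EC-like cells of EC-iCD45KO the macrophage and neutrophil markers were higher too and the monocyte markers lower, and their part was not tested.

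None of the 10 adhesion relay genes passed 2-fold in either direction, and their median was 0.25. Ptk2b, a kinase related to focal adhesion kinase, lay just inside at -0.99 (-1.16 to -0.82), from 89.2 to 44.8 CPM. In fibroblast-like cells 2 of 10 were lower past 2-fold, Ptk2b (-1.33) and Nedd9 (-1.27, an adhesion scaffold), and 0 higher. This list holds the kinases and scaffolds that Src, Fyn and Yes1 act on at adhesions. Cav1, the caveolin of endothelial caveolae and a substrate of Src, was the highest, at 611 and 723 CPM (0.24, 0.19 to 0.29). None of 3 measured related kinases passed 2-fold, with a median of 0.26. Abl2 was the highest, at 68.3 and 85.9 CPM (0.33, 0.18 to 0.49).

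**Figure D5:**
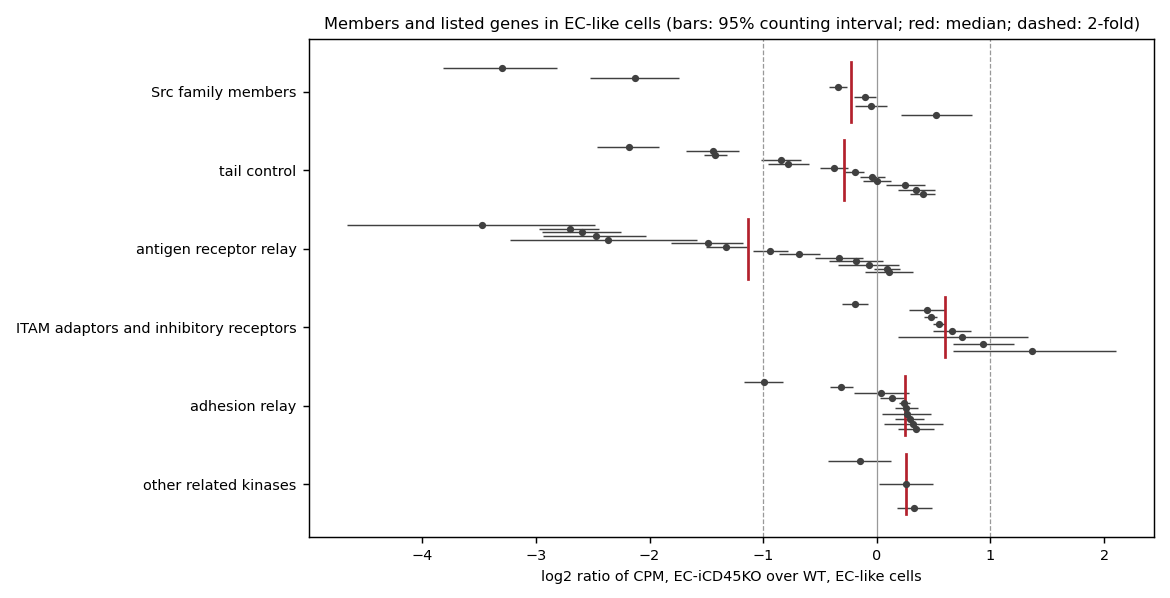
Log2 ratio of EC-iCD45KO over WT in EC-like cells for the members and the 5 lists, on a linear axis; each point is a gene that averaged 5 CPM or more, bars are 95% counting intervals, red lines are medians and dashed lines mark 2-fold. The antigen receptor relay reaches furthest to the left (median -1.13), the ITAM adaptors lie mostly to the right (0.60) and the adhesion relay stays within 2-fold.

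The genes whose class pattern was most like each member's were ranked by Pearson's r of log2(CPM + 1) over the 14 classes, taking the smaller value of the 2 libraries, among 10947 genes. These correlations share libraries, depth and free RNA, and carry no test. Yes1 was most like Lysmd2 (0.89), Dock9 (0.88) and Pear1 (0.88). Lyn was most like Dok3 (0.93) and Syk (0.93), which encode an adaptor and a kinase of B and myeloid cells. Fgr was most like Tpd52 (0.95), Nfam1 (0.95) and Plbd1 (0.94). Among the genes most like Lck were Grap2 (0.94) and Cd2 (0.92), an adaptor and a surface receptor of T cells. Among those most like Fyn were AW112010 (0.93) and Ubr2 (0.87). Blk was most like Il9r (0.91), Ccr6 (0.84) and Serpinb1a (0.83). Src was most like Flot1 (0.88), Lsm10 (0.80) and Agap1 (0.79).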

How the data were processed

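The deposited files are 1 matrix of UMI counts per library with its barcodes and genes, made with Cell Ranger 7.1.0 and the mouse build mm10, per the submitters' processing notes. The deposited counts are whole numbers, and each barcode had at least 500 UMIs, so depth limits every share. Cells were kept from 300 genes upward and up to 10% mitochondrial UMIs (39503 and 28960). Scrublet's own threshold marked 2 and 0 doublets, so it had not worked, and the 10% of cells with the highest scores in each library were removed instead (4135 and 3023). Clustering used scanpy 1.11.5 with 2000 variable genes, 30 components, 20 neighbours and Leiden resolution 1. A cluster was named from markers where its own list led clearly, by thresholds set with earlier results known.

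UMIs were summed per class and library, divided by all UMIs of the class and given as CPM. Intervals (95%) are exact Poisson for levels, exact conditional binomial for ratios and Clopper-Pearson for shares, and cover counting error only. A count of 0 was given the level of 3 UMIs as its limit. Past 2-fold was counted among genes that averaged 5 CPM or more over both libraries. On EC-like counts of 10971 genes simulated with Poisson error alone, as the intervals assume, they held the true ratio for 95.5% of genes. Variation between mice, libraries or mixes of cells was not simulated, so this checks only the calculation. TMM scaling used edgeR 4.0.16.

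The members, marker and pathway lists were chosen with earlier results of these data known. Genes named are all members and Ptprc, the 6 listed genes with the largest absolute log2 ratio in EC-like cells, the highest gene of each list there, the 3 genes most like each member and the 2 leading genes of a cluster. Genes of counts of 5 or fewer, and Btk, Blnk, Csk, Plcg1, Lcp2, Vav1, Ptk2b and Nedd9, were added after their values were seen. Some genes that this rule names are not reported here. Blk was set against 3 B cell markers, a choice made after the data were seen. Of 32285 gene identifiers, 32158 matched GENCODE M21. Protein sequences and their identity were not analysed here. Alternatives were other filters, no doublet removal, resolution 2, other scalings and weights, and cells without leukocyte markers.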

Additional observations from a re-analysis of the deposited data

Results flagged for a closer look

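Lyn and Blk each had a ratio of EC-iCD45KO over WT whose sign in some classes was opposite to that in EC-like cells, beyond the counting intervals, and the difference between the classes was not tested. Lyn was higher in macrophage-like cells, with a log2 ratio of 0.26, and in T-like cells, with 0.64, against -0.34 in EC-like cells. The macrophage-like clusters made up different shares of their class in the 2 libraries, and within them Lyn stood at 0.30 in the Retnla and Negr1 cluster and 0.08 in the Gpnmb and Atp6v0d2 cluster. Blk was higher in B-like cells, with 0.34, and in T-like cells, with 0.83, against -3.30 in EC-like cells. The T-like clusters made up different shares of the class in the 2 libraries, as described above. Within the Tcrg-C1 and Trdc cluster Blk stood at 312 CPM in WT and 228 CPM in EC-iCD45KO and Lyn at 203 and 170 CPM.

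The unnamed cells, of which only the Cd209a and Timd4 cluster was described above, had more of 3 members in EC-iCD45KO than in WT. Src stood at 8.81 CPM against 4.68, Lyn at 487 CPM against 443 and Fgr at 101 CPM against 47.6. The unnamed cells came from different clusters in the 2 libraries, and the part of this in these values was not tested. A cluster nearest to the neutrophil markers gave 612 of the 11345 WT and 3897 of the 6847 EC-iCD45KO cells. The cluster led by Dmp1 and Slurp1 gave 3952 and 943, and that led by Dcstamp and Dpys 3501 and 249.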

How the results depend on the processing

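No paired analysis was possible because a group holds a single library. The log2 ratios of the 7 members in EC-like cells moved by less than counting error with a stricter cell filter, no doublet removal, Leiden resolution 2, TMM scaling, CPM without the most abundant gene families and, chosen after the data were seen, without the barcodes both libraries held. In EC-like cells without leukocyte marker UMIs, Fyn (0.14) and Lyn (0.14) changed sign, with overlapping intervals of their levels in the 2 libraries, and Lck (-0.37), Fgr (1.06) and Blk (-2.11) moved. With the mean of single-cell CPM, Fyn was -0.24, Lck -2.57 and Fgr 0.90. Weighting the 3 EC-like clusters equally gave -0.48 for Lyn. The cause was not tested. At 1.5-fold, 4 of the 50 listed genes were higher in place of 1, and 15 were lower in place of 10. Of all genes measured in EC-like cells, 4.96% were higher and 7.53% lower at 1.5-fold, in place of 1.56% and 3.57%. Schwann-like over neutrophil-like Src turned to -0.31 with TMM and -0.0034 with single-cell means, and B-like over neutrophil-like Lyn to -0.17 with TMM. Depth limits Src in most classes, and Lck and Blk in EC-like cells of EC-iCD45KO. The same selection of cells in SMC-like, fibroblast-like and lymphatic EC-like classes was added after the data were seen.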

Other observations

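Lymphatic EC-like cells without a UMI of the leukocyte markers were few, 41 in WT and 30 in EC-iCD45KO. Yes1 stood at 280 CPM in WT (95% interval 181 to 414) from 25 UMIs and at 118 CPM in EC-iCD45KO (54.2 to 225) from 9 UMIs. Lyn stood at 325 CPM (218 to 467) and 290 CPM (181 to 438). Fgr and Blk had 0 UMIs in both libraries, which allows up to 33.6 and 39.5 CPM.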
